A study of Bos taurus with 20 samples.

Results

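GDF9 and BMP15 are growth factors of the TGF-beta superfamily that the oocyte makes and secretes. Their expression was examined here together with that of 7 receptors of the same superfamily, the type II receptors BMPR2, TGFBR2, ACVR2A, and ACVR2B and the type I receptors BMPR1A, BMPR1B, and TGFBR1. These 9 genes were chosen by name, with earlier results of these data known. All 9 were among the 22596 genes or transcripts of a custom bovine Agilent microarray, where 24 spots stood for them (18 different probe sequences, 2 for each gene). Array names gave 7 of the 9 directly, whereas BMPR1A and BMPR2 were listed under older names (BMPR-IA and BMPRII).

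The samples were bovine ovarian cells from antral follicles of 3 to 6 mm, collected after slaughter. Theca cells (TH) were scraped from the follicle wall, granulosa cells (GC) were separated from the cumulus-oocyte complexes after puncture of the follicle, and the complexes gave the cumulus cells (CC) and the immature oocytes. A further group of CC was collected after 4 h of in vitro maturation (IVM), the culture in which the oocyte resumes meiosis and the CC layer begins to expand. Each of the 5 groups had 4 arrays. No genotype, breed, or age was given for any group, and apart from IVM no agent was named. The number of animals behind each sample was not given in the labels, so that p-values measure the spread between the 4 samples of a group.

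The ligands signal by bringing together a pair of type II receptors and a pair of type I receptors, whereupon the type I kinases phosphorylate SMAD transcription factors. GDF9 is known to act through BMPR2 and TGFBR1 and to activate SMAD2 and SMAD3, and BMP15 through BMPR2 and BMPR1B and to activate SMAD1, SMAD5, and SMAD9. Both ligands keep the cumulus cells proliferating and prevent their premature luteinization, and sheep that carry variants of GDF9, BMP15, or BMPR1B have altered ovulation rates. TGFBR2 is the type II receptor of the TGF-beta ligands, ACVR2A and ACVR2B serve activins and some BMPs, and BMPR1A is the type I receptor favoured by BMP2 and BMP4.

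Probe sequences are shown for 3 genes, because the results on BMP15 depended on which of its probes was read and because BMPR1B and ACVR2B differed between somatic groups with both of their probes, of which 1 each is shown. The 60-base sequences are those listed in the array files, from 5′ to 3′, and capitals mark the 19 whole codons of the only forward reading frame without a stop codon. Both BMP15 probes lie in the part of the gene that codes for the end of the mature growth factor.
BMP15 probe 1: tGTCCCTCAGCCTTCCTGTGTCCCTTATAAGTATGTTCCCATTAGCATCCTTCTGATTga
BMP15 probe 2: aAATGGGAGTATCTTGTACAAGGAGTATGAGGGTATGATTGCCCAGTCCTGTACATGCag
BMPR1B probe 2: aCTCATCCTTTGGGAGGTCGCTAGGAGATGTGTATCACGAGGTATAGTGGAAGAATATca
ACVR2B probe 1: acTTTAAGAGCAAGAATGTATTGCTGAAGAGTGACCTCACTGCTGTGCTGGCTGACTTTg
All 4 had a GC content of 45%. None of the 18 member sequences was on the array for another gene, and the longest stretch that a pair of probes of 1 gene had in common was 8 bases. On the UMD 3.1 assembly the array files place BMP15 on chromosome X (93971184 to 93977809), BMPR1B on chromosome 6 (30798831 to 30850160), ACVR2B on chromosome 22 (11864297 to 11894086), and GDF9 on chromosome 7 (46064180 to 46067119).

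Gene expression values are given as log2 of the processed signal relative to the 75th percentile of the same array, so that 0 is the level of that percentile and a difference of 1 is a doubling. They are means ± SD over n = 4 arrays, and a gene was called different at an adjusted p below 0.05 in limma with Benjamini-Hochberg adjustment over all 22596 genes. Between 49.3% and 68.8% of probes were above background on the oocyte arrays, where replicate 2 was the lowest, and between 54.2% and 62.8% on the others. The 75th percentile of processed intensity was 1521 to 2891 in oocytes, 424.1 to 1101 in TH, and 368.1 to 576.3 in GC. It was 536.3 to 657.3 in CC and 284.5 to 395.9 in CC after IVM. A given signal near background therefore has a lower value on arrays with a higher percentile, which affects comparisons of dim genes. The median of all genes was lower in the oocyte than in CC by a difference of -0.40 and higher in CC after IVM than in CC by 0.37, and quantile normalization brought these medians to 0.02 and 0.01. TH, GC, CC, and oocytes shared 2 slides, whereas the 4 arrays of CC after IVM were alone on slide 3, so that the slide and IVM cannot be told apart. The theca genes CYP17A1 and COL1A1 had their highest mean in TH, and the granulosa genes FSHR and CYP19A1 in CC. However, COL1A1 and INSL3, a theca hormone, were also above background on every GC and CC array. INSL3 was so on every oocyte array and COL1A1 on 2. In TH, FSHR and AMH were above background on all 4 arrays, with means of -3.29 and 2.83, against 2.13 and 4.68 in GC. CYP19A1 was above background on 2 TH arrays. The part of granulosa cells in the TH values was not tested.

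GDF9 was far higher in the oocyte than in any somatic group. In the oocyte its expression value was 4.63, 4.68, 5.17, and 4.98 in replicates 1 to 4. In CC it was -3.76, -4.41, -4.34, and -2.70, above background on all 4 arrays. In GC it lay between -6.12 and -4.94, above background on 2 of 4 arrays, and in TH between -6.47 and -5.30, above background on none. Thus, no somatic array came near the oocyte arrays, and CC, the cells in contact with the oocyte, were the highest of the somatic groups before culture. GDF9 was 406-fold higher in the oocyte than in CC (log2 difference 8.67 ± 0.37 SE, adjusted p = 1.1e-11), 1250-fold higher than in GC (adjusted p = 2e-12), where probe 1 was above background on no array and gave at least 1040-fold, and at least 1130-fold higher than in TH (adjusted p = 1.2e-12). In a sample of many cells, fewer cells of a type and less RNA per cell cannot be told apart.

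BMP15 stood at 4.13, 4.25, 4.37, and 4.41 in the 4 oocyte replicates, and its mean was 4.29 ± 0.13. In somatic cells it ranged from -4.86 to -2.74, and the means were -4.58 (TH), -4.14 (GC), -3.64 (CC), and -3.85 (CC after IVM). The oocyte arrays were again separate from all others. The log2 difference between oocyte and CC was 7.93 ± 0.31 SE, or 244-fold (adjusted p = 3.9e-12), and BMP15 was 345-fold higher than in GC and 469-fold higher than in TH (adjusted p = 2.2e-12 and 1.2e-12).

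The 2 probes of BMP15 gave different accounts of the somatic cells. Probe 1 was above background on all 16 somatic arrays, where it had means of -1.77 (TH), -1.30 (GC), -1.33 (CC), and -1.21 (CC after IVM). Probe 2 was above background on no array of TH, GC, or CC after IVM and on 2 of 4 CC arrays, replicate 1 (-5.02) and replicate 4 (-4.26). In the oocyte all 4 arrays were above background with both. By probe 1 the oocyte exceeded CC by 5.62 ± 0.22 SE (49.2-fold, adjusted p = 8e-12), and by probe 2 by 10.24 ± 0.54 SE (1210-fold, adjusted p = 2.2e-10), whereas the oocyte exceeded GC and TH by at least 641-fold and 764-fold with probe 2 (adjusted p = 7.9e-11 and 4.9e-11). The size of the BMP15 difference therefore depended on the probe, but its direction did not. The 2 probes of GDF9 gave closer differences between oocyte and CC, 8.82 ± 0.47 SE and 8.51 ± 0.33 SE. What probe 1 of BMP15 measured in somatic cells was not tested.

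**Figure D1:**
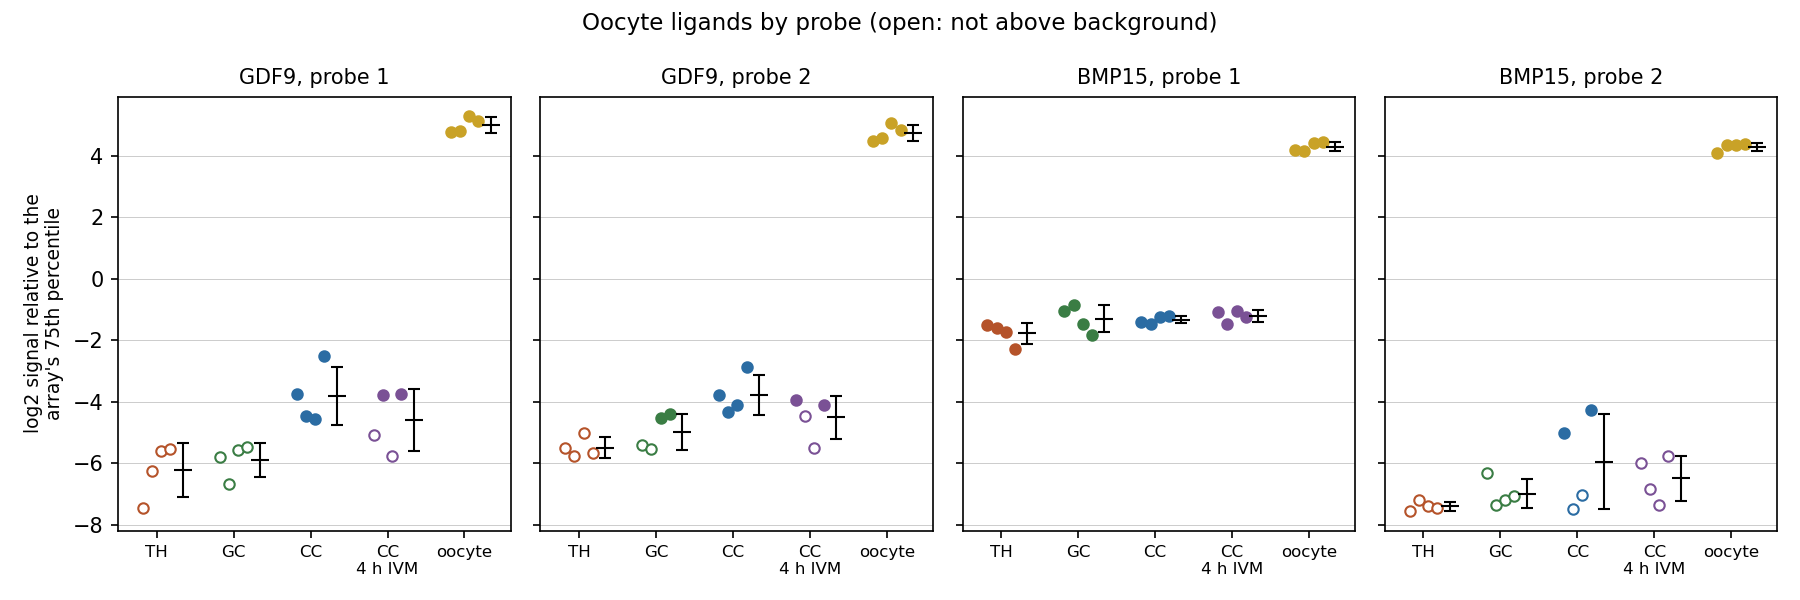
Expression of GDF9 and BMP15 by probe (y axis: log2 signal relative to the 75th percentile of the array) in TH, GC, CC, CC after 4 h of IVM, and oocytes. Each point is 1 array, open points are not above background, and bars are mean ± SD of 4 arrays. All oocyte points lie above 4, and probe 1 of BMP15 is the only one with every somatic point filled.

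Between the somatic cells, GDF9 was higher in CC than in GC by 1.62 ± 0.37 SE, or 3.08-fold (adjusted p = 0.011), and at least 2.80-fold higher in CC than in TH (adjusted p = 0.00047), with no overlap of the arrays in either comparison. Both probes gave the call against GC, probe 1 with at least 2.31-fold and probe 2 with 2.29-fold (adjusted p = 0.013 and 0.036). Within slide 1 the difference from GC was 1.77 (adjusted p = 0.098) and within slide 2 it was 1.48 (adjusted p = 0.27), and with the slide as a block it was 1.62 (adjusted p = 0.0026). It was 0.62 in the deposited log2 table (adjusted p = 0.063) and 0.19 with normexp (adjusted p = 0.51), a background correction that keeps an offset. BMP15 in CC exceeded GC by 0.50 ± 0.31 SE (adjusted p = 0.38). It was called lower in TH than in CC, by a difference of -0.94 (adjusted p = 0.028), but the arrays overlapped and neither probe alone gave that call.

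Of 5 transcripts that mark the oocyte, 4 were also higher in CC than in GC, against 5.26% of all genes. Zona pellucida genes ZP2, ZP3, and ZP4, which encode the egg coat, and NLRP5, a maternal factor, were called higher in CC than in GC by 2.90, 1.42, 3.1, and 2.24, whereas DAZL, a germ cell RNA-binding protein, was lower by a difference of -1.51. In TH, where GDF9 was not above background, ZP2 was above background on all 4 arrays with a mean of -2.17, compared with -1.97 in CC, and was called higher than in GC by 2.70. CC replicate 4, which had the highest GDF9 (-2.70) and BMP15 (-2.74) of the CC arrays, was also the highest in ZP2 (-0.45), ZP3 (-1.21), ZP4 (0.21), and NLRP5 (-1.40). After IVM the same 4 markers were lower than in CC by differences of -3.17, -1.24, -3.44, and -2.02, while GDF9 differed by -0.75 ± 0.46 SE (adjusted p = 0.20, 95% interval -1.78 to 0.28). The comparisons with GC and with IVM share the 4 CC arrays. Whether oocyte RNA had a part in the GDF9 values of CC was not tested.

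**Figure D2:**
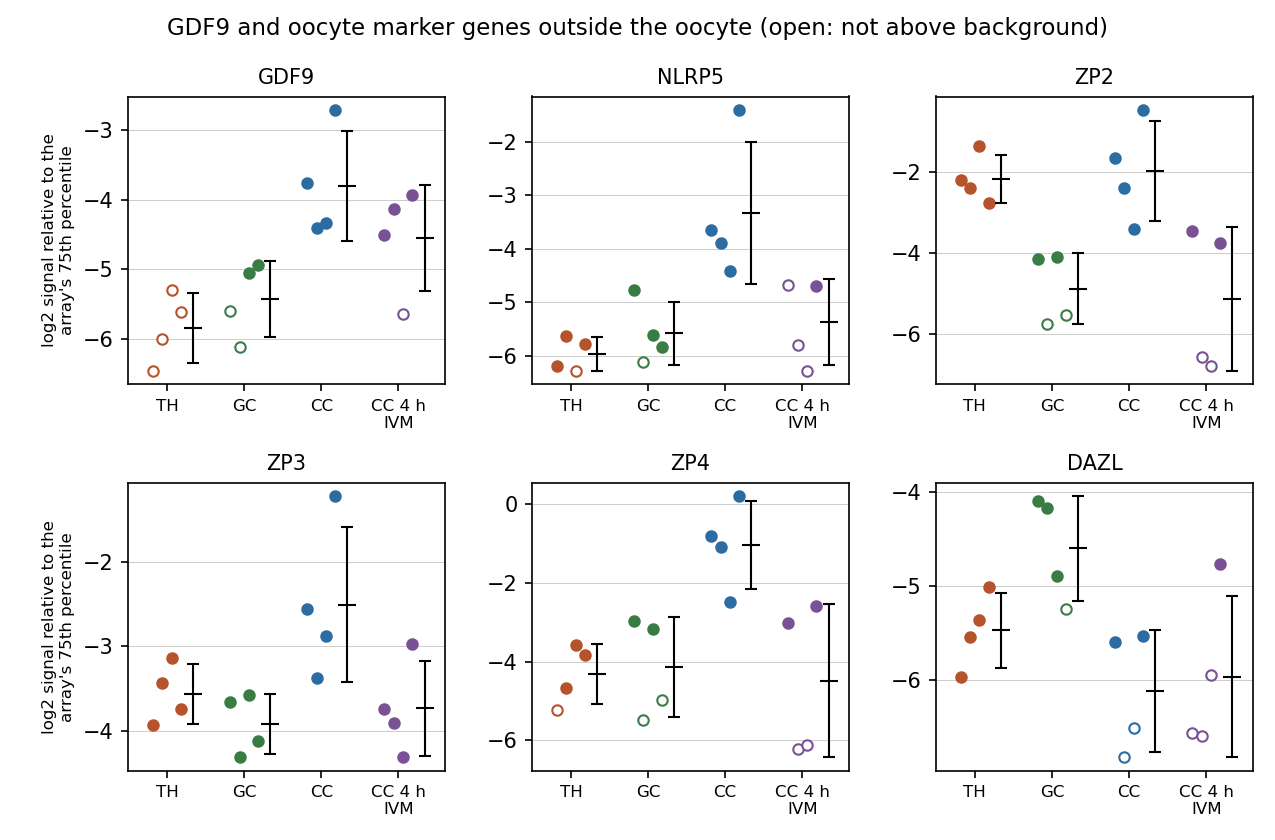
GDF9 and 5 oocyte marker genes in TH, GC, CC, and CC after 4 h of IVM (y axis: log2 signal relative to the 75th percentile of the array, with a scale of its own in each panel). Points are arrays, open where not above background, and bars are mean ± SD of 4 arrays; GDF9, NLRP5, ZP2, ZP3, and ZP4 have their highest mean in CC, and DAZL in GC.

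The genes whose pattern over all 20 arrays was most like that of GDF9 were YBX2 (Pearson r = 0.993), which encodes a germ cell mRNA-binding protein, KIAA0895 (r = 0.992), NLRP14 (r = 0.991), and 2 transcripts without a gene name. For BMP15 they were BCAR4 and SLBP2 (both r = 0.997), the latter an oocyte histone mRNA-binding protein, then TRIM77, DDX43 (both r = 0.996), and 1 unnamed transcript. These values describe the difference between oocyte and somatic arrays, which all such genes have in common.

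The F-test over TH, GC, CC, and oocytes called all 9 genes, against 71.2% of all genes. In the oocyte, 7 of the 9 were called higher than in CC and 1 lower, against 31.7% and 32.0% of all genes. Compared with GC, 5 were higher and 1 lower, against 30.7% and 37.9%, and compared with TH, 6 were higher and 2 lower, against 32.5% and 32.1%. These counts include both ligands, which were chosen as products of the oocyte. Of the 7 receptors alone, 5, 3, and 4 were higher than in CC, GC, and TH, and 1, 1, and 2 were lower. Among the somatic cells, calls were fewest between CC and GC. In CC compared with GC, GDF9 was higher and BMPR2 and BMPR1B were lower, against 5.26% and 4.58% of all genes. In TH compared with GC, 2 receptors were higher and 2 lower, against 11.8% and 14.5%, and in TH compared with CC, 4 receptors were higher, and both ligands and 1 receptor were lower, against 14.4% and 17.4%.

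BMPR2, the type II receptor that GDF9 and BMP15 have in common, was above background on all 20 arrays. Its values were -1.16, -1.17, -1.36, and -1.17 in the oocyte and -2.37, -2.68, -2.34, and -2.62 in CC. In GC it lay between -2.22 and -1.53, and in TH between -2.36 and -1.55. All oocyte arrays were above all others, and CC was below GC on every array. The oocyte exceeded CC by 1.29 ± 0.19 SE (2.44-fold, adjusted p = 2e-05), GC by 0.60 (adjusted p = 0.012), and TH by 0.64 (adjusted p = 0.0079), but the calls against GC and TH were each lost in 5 of 15 alternatives. CC was lower than GC by a difference of -0.68 ± 0.19 SE (adjusted p = 0.034) and lower than TH by 0.65 (adjusted p = 0.017), whereas TH and GC differed by -0.04 (95% interval -0.45 to 0.37). The arrays of TH and CC overlapped, and that call was lost in 5 of 15 alternatives, by probe 2 alone, and without TH replicate 2, TH replicate 3, or CC replicate 2. The call between CC and GC was lost in 6 alternatives and when any of GC replicates 1, 2, and 3 or CC replicates 1, 2, and 4 was left out, with a difference of -0.41 by probe 2 alone (adjusted p = 0.18).

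TGFBR2 had the widest range among the receptors outside the oocyte. In TH its values were -0.84, -1.02, -0.52, and -0.74. In GC they were -6.73, -4.97, -4.76, and -3.95, and in CC they were -6.54, -7.42, -5.65, and -6.74, with 3 of 4 arrays above background in each group. TH was therefore far above both groups, and GC and CC overlapped. The difference from GC was 4.32 ± 0.46 SE (20-fold, adjusted p = 4.5e-06) and from CC 5.80 ± 0.46 SE (55.9-fold, adjusted p = 1.2e-07). The low groups were near background, and the 2 spots of probe 2, above background on no CC array, gave only at least 14.6-fold and 15-fold against CC. All 4 spots gave the call against GC, 1 of them, above background on no GC array, with at least 11.5-fold. The difference from GC was 4.92 within slide 1 and 3.72 within slide 2 (adjusted p = 0.0073 and 0.0026). Values that keep more of the background were smaller, with a difference from GC of 2.63 in the deposited log2 table and 2.02 with normexp (adjusted p = 2.1e-10 and 3.4e-09).

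Of 3 endothelial genes 2, and of 3 blood cell genes 1, were also called higher in TH than in GC, against 11.8% of all genes. PECAM1 was higher in TH than in GC by 5.62 and VWF by 5.22, both genes of the vessel wall, and PTPRC, the leukocyte antigen CD45, was at least 1.94-fold higher (adjusted p = 0.0069), whereas CD68 and HBB were not called. All 3 endothelial genes of the list (PECAM1, VWF, and CDH5) had their highest somatic mean in TH. CDH5 was not called against GC and was above background on 1 of 4 TH arrays. TH also holds theca cells, with CYP17A1, the enzyme of androgen synthesis, higher than in GC by 5.90. Which of these cells carried TGFBR2 was not tested.

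The oocyte had TGFBR2 values of -5.26, -5.11, -4.96, and -5.25, above background on 3 of 4 arrays. It was called higher than CC by 1.44 ± 0.46 SE (adjusted p = 0.012), but no single spot gave the call, and normexp background correction turned the difference to -0.73 (adjusted p = 9e-05). The oocyte differed from GC by -0.04 (95% interval -1.03 to 0.94). GC exceeded CC by 1.48 in the same fit (adjusted p = 0.056), and this difference was called in 7 of 15 alternatives and without GC replicate 1 (adjusted p = 0.0017) or CC replicate 3.

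ACVR2A was the only receptor not above background on any oocyte array. Its means were -3.60 ± 0.29 in TH, -3.59 ± 0.26 in GC, and -4.10 ± 0.19 in CC. The 12 arrays were all above background by probe 2, but only 3 TH, 2 GC, and 1 CC arrays by probe 1. The bounds put the oocyte at least 4.91-fold below TH, 4.95-fold below GC, and 3.48-fold below CC (adjusted p = 9.8e-09, 1e-08, and 6.4e-08). By probe 1 they were at least 2.03-fold, 2.05-fold, and 1.52-fold, and by probe 2 at least 11.3-fold, 11.3-fold, and 7.55-fold, all called. The deposited log2 table gave smaller differences, -1.70 from CC and -1.93 from GC. Differences between somatic cells were small, with TH minus GC at -0.01 (95% interval -0.58 to 0.56) and CC minus GC at -0.51 (adjusted p = 0.29).

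ACVR2B showed another order, with the lowest values in TH. They were -2.28, -1.45, -1.54, and -1.18 in TH, whereas GC had 0.15, 0.13, 0.26, and -0.43 and CC had -0.21, -0.17, -0.37, and 0.19. No TH array reached the range of GC or CC. The difference from GC was -1.64 ± 0.25 SE (3.11-fold lower, adjusted p = 0.00016) and from CC -1.47 ± 0.25 SE (2.77-fold, adjusted p = 3e-04). The 2 probes gave -1.54 and -1.73 against GC, both called. They stood at different levels, with GC means of -3.14 and 3.19, so that the values of the gene lie between those of its probes. Within slide 2 the difference from GC was -1.27 (adjusted p = 0.066) and within slide 1 it was -2.00 (adjusted p = 0.026). The oocyte, with a mean of -0.34 ± 0.38, differed from CC by -0.19 (95% interval -0.74 to 0.35) and from GC by -0.36 (95% interval -0.90 to 0.18).

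Of the type I receptors, BMPR1B separated GC from CC. In GC its values were 0.02, -0.06, 0.57, and -0.23, and in CC they were -2.38, -3.45, -2.69, and -2.71. TH lay between them at -1.02, -0.91, -0.22, and -0.72, and the oocyte at -0.15, -0.35, -0.19, and -0.35. CC thus stood apart from the other 3 cell types, which were closer to each other. BMPR1B was lower in CC than in GC by a difference of -2.88 ± 0.24 SE (7.38-fold, adjusted p = 4.4e-06). Both probes gave this difference, -2.84 and -2.92, and it was -2.90 within slide 1 and -2.87 within slide 2 (adjusted p = 0.043 and 0.014). The probes stood at different levels, with GC means of 1.92 and -1.77 and CC means of -0.92 and -4.69. The values of the gene therefore lie between those of its probes. Probe 2 was above background on 3 of 4 CC arrays. TH exceeded CC 4.26-fold (adjusted p = 6.3e-06) and the oocyte exceeded CC 5.85-fold (adjusted p = 1.4e-07).

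The call of BMPR1B between TH and GC was weaker. The difference was -0.79 ± 0.24 SE (adjusted p = 0.025), the arrays overlapped, and it was -0.94 within slide 1 and -0.64 within slide 2 (adjusted p = 0.21 and 0.29). It was also lost without TH replicate 1, TH replicate 2, or GC replicate 3. The oocyte differed from GC by -0.33 (95% interval -0.85 to 0.18).

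BMPR1A was highest in the oocyte and next in TH. Its values were 1.47, 1.33, 1.51, and 1.16 in the oocyte and -0.36, -0.02, -0.08, and -0.01 in TH. GC (-1.21 to -0.96) and CC (-1.37 to -1.10) were lower and overlapped. The 3 levels did not overlap, and all 20 arrays were above background. The oocyte exceeded CC by 2.56 ± 0.14 SE (5.89-fold, adjusted p = 2.1e-10) and TH by 1.49 ± 0.14 SE (2.80-fold, adjusted p = 1.3e-07). TH exceeded GC by 0.95 ± 0.14 SE (1.93-fold, adjusted p = 0.00011), or 0.97 within slide 1 (adjusted p = 0.058) and 0.93 within slide 2 (adjusted p = 0.040). CC and GC differed by -0.12 (95% interval -0.42 to 0.18), so that BMPR1A did not show the gap between these cells that BMPR1B showed, although the difference between the genes was not tested.

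TGFBR1, the type I partner of GDF9, was highest in the oocyte. It had values of -2.68, -2.63, -2.91, and -2.57 in the oocyte, and means of -4.42 ± 0.20 in GC and -4.97 ± 0.44 in CC. TH replicate 4 (-5.61) was not above background, and the other 3 TH arrays lay between -4.27 and -4.13. Every oocyte array was above every somatic array. The oocyte exceeded CC by 2.27 ± 0.30 SE (4.83-fold, adjusted p = 4.8e-06), GC by 1.72, and TH by 1.87 (adjusted p = 8.8e-05 and 3.8e-05). With normexp background correction the difference from CC was 0.53 (adjusted p = 0.022), and the call against GC was lost. TH, GC, and CC were not distinguished from each other, with CC minus GC at -0.55 (95% interval -1.18 to 0.08) and TH minus CC at 0.41 (95% interval -0.22 to 1.04).

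**Figure D3:**
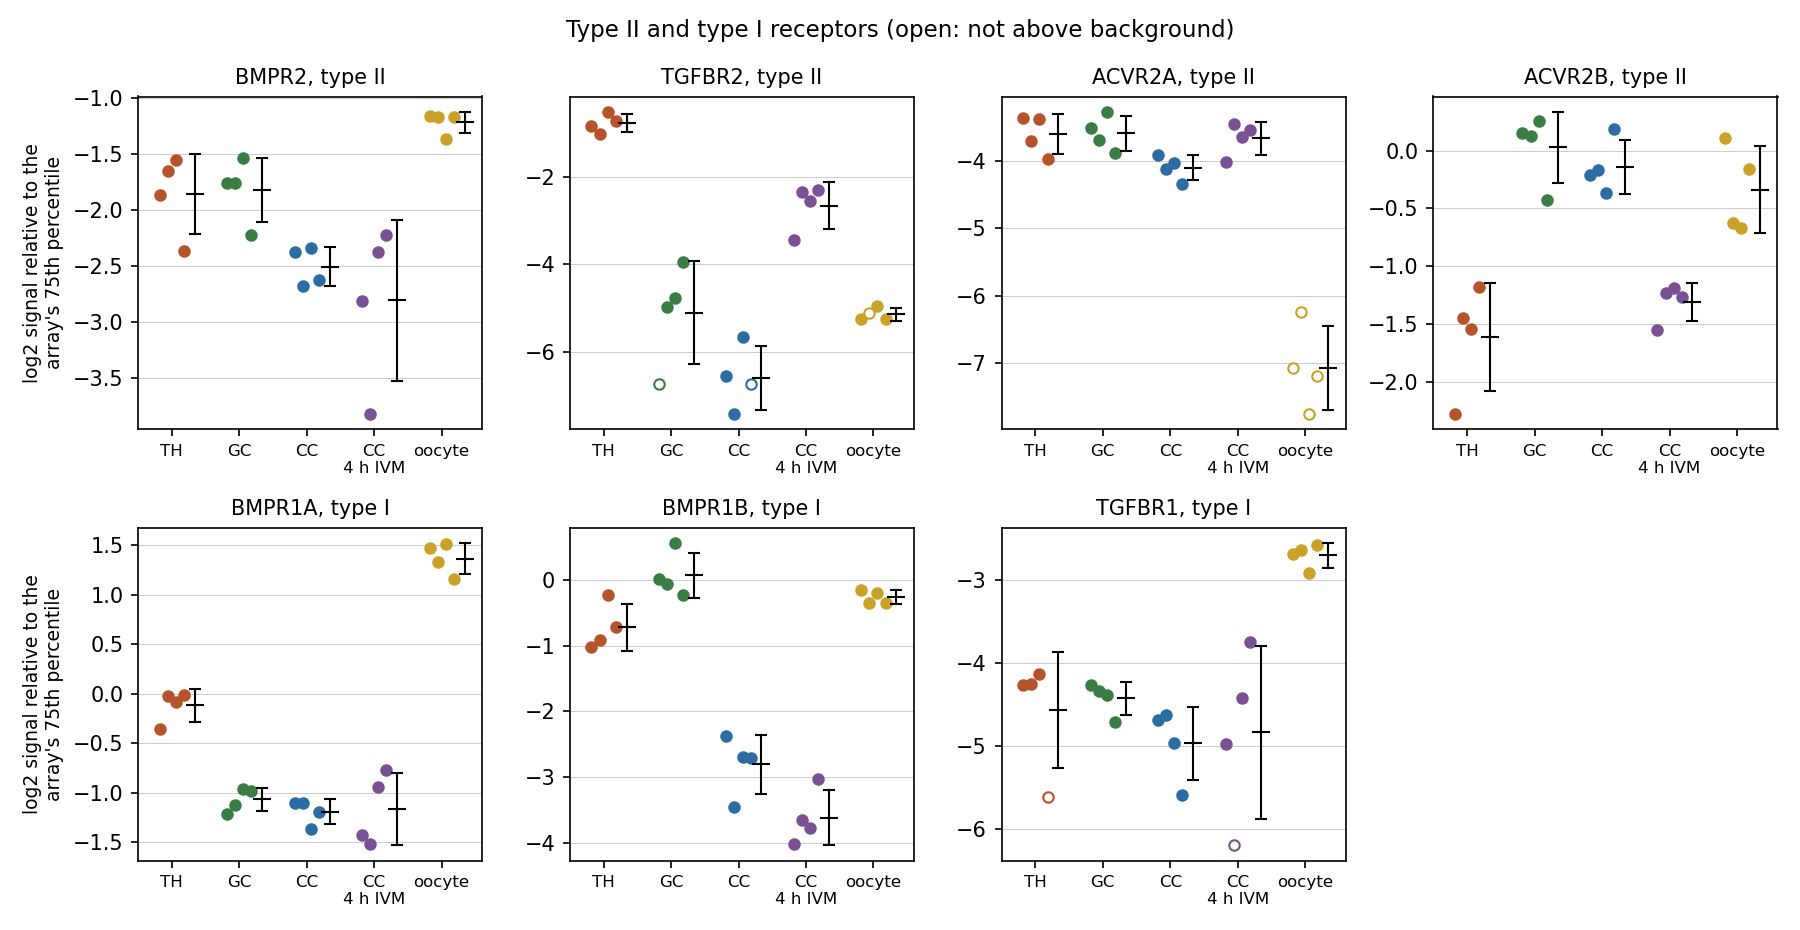
Expression of the 7 receptors (y axis: log2 signal relative to the 75th percentile of the array, with a scale of its own in each panel) in TH, GC, CC, CC after 4 h of IVM, and oocytes. Points are arrays, open where not above background, and bars are mean ± SD of 4 arrays; TGFBR2 is highest in TH, BMPR1B is low in CC, and ACVR2A is open on all 4 oocyte arrays.

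After 4 h of IVM, 1 of the 9 genes was higher in CC and 2 were lower, against 30.3% and 15.6% of all genes. TGFBR2 had values of -3.44, -2.36, -2.55, and -2.30 after IVM, compared with -6.54, -7.42, -5.65, and -6.74 before. All 4 IVM arrays were above the 4 arrays before culture, and the gene was now above background on each of them. The difference was 3.92 ± 0.39 SE (15.2-fold, adjusted p = 7.3e-05), against a median of 0.37 over all genes. All 4 spots gave the call, those of probe 1, above background on 2 and 1 CC arrays, with differences of 4.26 and 3.57, and those of probe 2, above background on no CC array, with at least 4.06-fold and 3.93-fold. The difference of the gene was 1.49 in the deposited log2 table and 1.46 with normexp, and none of 13 alternatives or 8 left-out arrays ended the call.

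Of 3 blood cell genes 3, and of 3 endothelial genes 2, were also called higher after IVM, against 30.3% of all genes. The median difference over all genes was 0.37. CD68, a macrophage gene, rose by 2.15, but it was also above background on every TH, GC, and CC array, with a mean of -2.89 in CC. VWF, above background on 3 IVM arrays and 1 CC array, rose by 1.72. HBB, the beta-globin gene, was also called (adjusted p = 0.031) and was above background on 2 IVM arrays and no CC array, and PECAM1, which was not called (adjusted p = 0.053), on 1 and none. CDH5 and PTPRC were called higher (adjusted p = 0.023 and 0.024) but were not above background on any array of either group, so that no size is given. BMP5, also above background on no array of either group, had a mean of -7.43 in CC and -6.75 after IVM. Values at background thus differed between the groups, and neither call was read as expression. ACVRL1, a type I receptor of endothelial cells, went the other way, with means of -2.42 in CC and -4.52 after IVM. The part of blood or endothelial cells in the TGFBR2 difference was not tested. The theca genes CYP17A1, COL1A1, COL1A2, ACTA2, and INSL3 were not called between the groups.

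**Figure D4:**
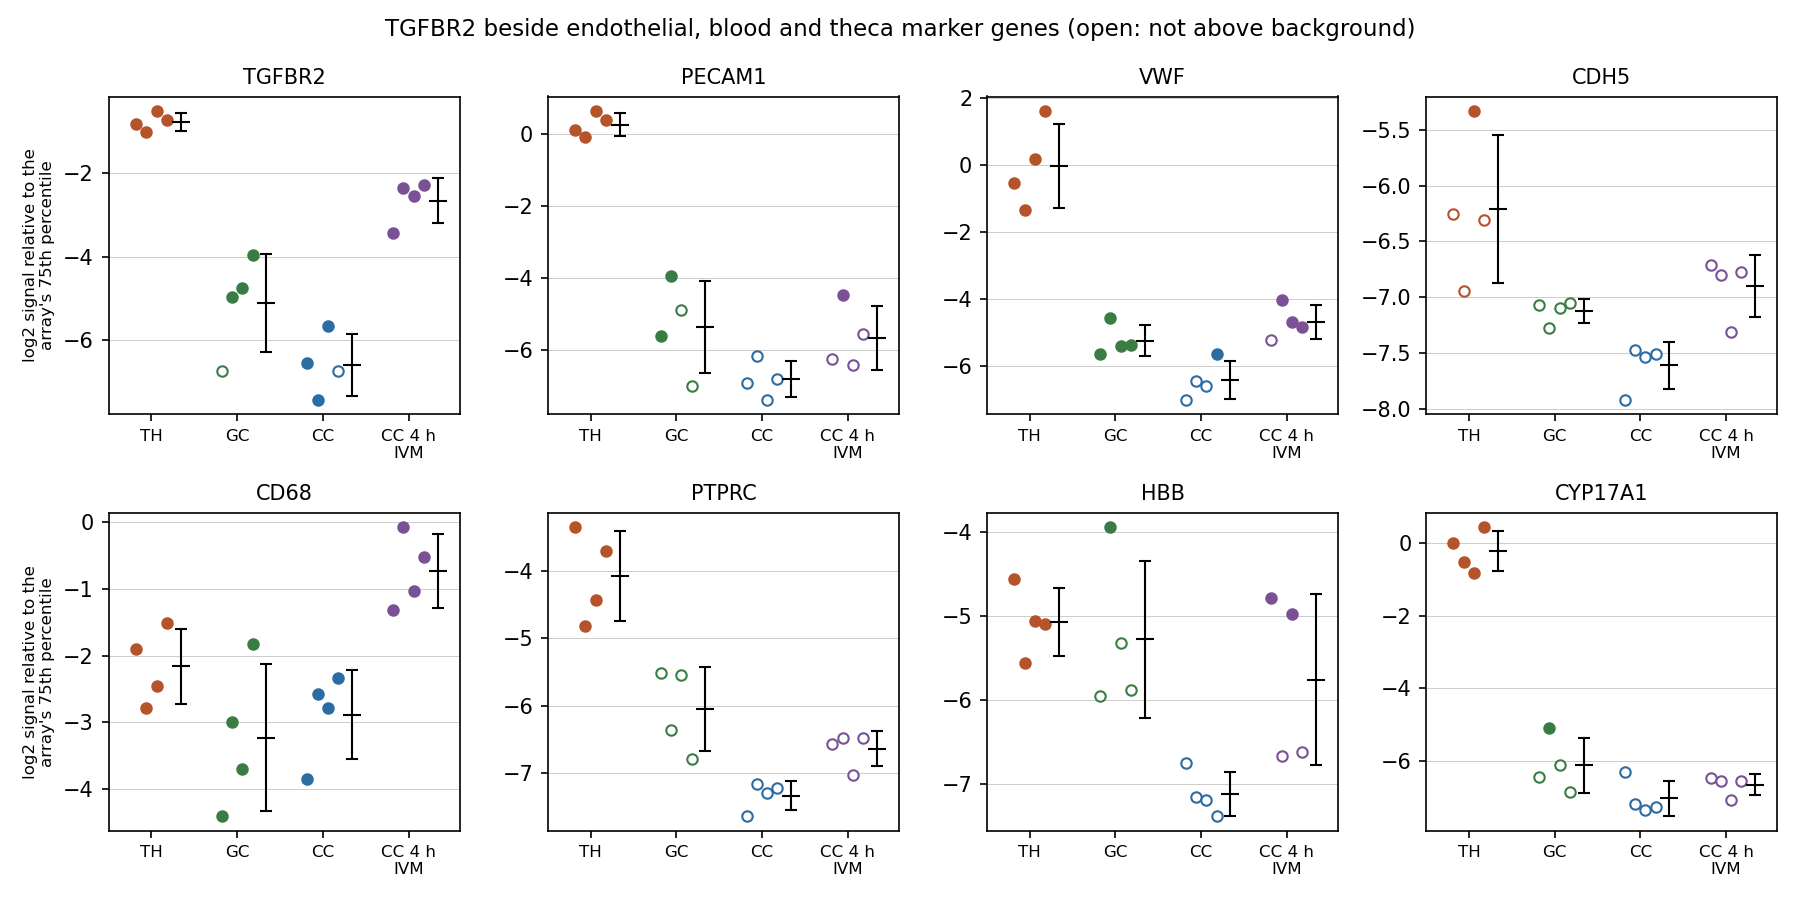
TGFBR2 beside 3 endothelial genes (PECAM1, VWF, CDH5), 3 blood cell genes (CD68, PTPRC, HBB), and the theca gene CYP17A1 in TH, GC, CC, and CC after 4 h of IVM (y axis: log2 signal relative to the 75th percentile of the array, with a scale of its own in each panel). Points are arrays, open where not above background, and bars are mean ± SD of 4 arrays; TGFBR2 is filled on all 4 IVM arrays, where CDH5, PTPRC, and CYP17A1 are open.

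ACVR2B fell with IVM. Its values were -1.55, -1.23, -1.19, and -1.27 after IVM, all below the lowest CC array before culture (-0.37), and the difference was -1.17 ± 0.19 SE (2.25-fold lower, adjusted p = 0.0015). Both probes gave the call, probe 1 with -1.58 and probe 2 with -0.76 (adjusted p = 0.0059 and 0.018). Probe 1 was above background on only 1 of 4 IVM arrays. With normexp the difference of the gene was -0.44 (adjusted p = 0.0033). BMPR1B had values of -4.02, -3.65, -3.78, and -3.03 after IVM. It was lower by a difference of -0.81 ± 0.29 SE (adjusted p = 0.044), but the arrays overlapped, the call was lost in 7 of 13 alternatives, and it was lost without any of CC replicates 1, 3, and 4 or IVM replicates 1, 2, and 3. Probe 2 of BMPR1B was not above background on any IVM array.

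The other receptors were not called. BMPR1A differed by 0.03 (95% interval -0.47 to 0.52), TGFBR1 by 0.14 (95% interval -0.92 to 1.19), BMPR2 by -0.30 (95% interval -1.05 to 0.44), and ACVR2A by 0.44 (95% interval -0.01 to 0.89). The interval of TGFBR1 includes a doubling and that of BMPR2 a loss of as much, and IVM replicate 2 was the lowest array in both (-6.20 and -3.82).

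**Figure D5:**
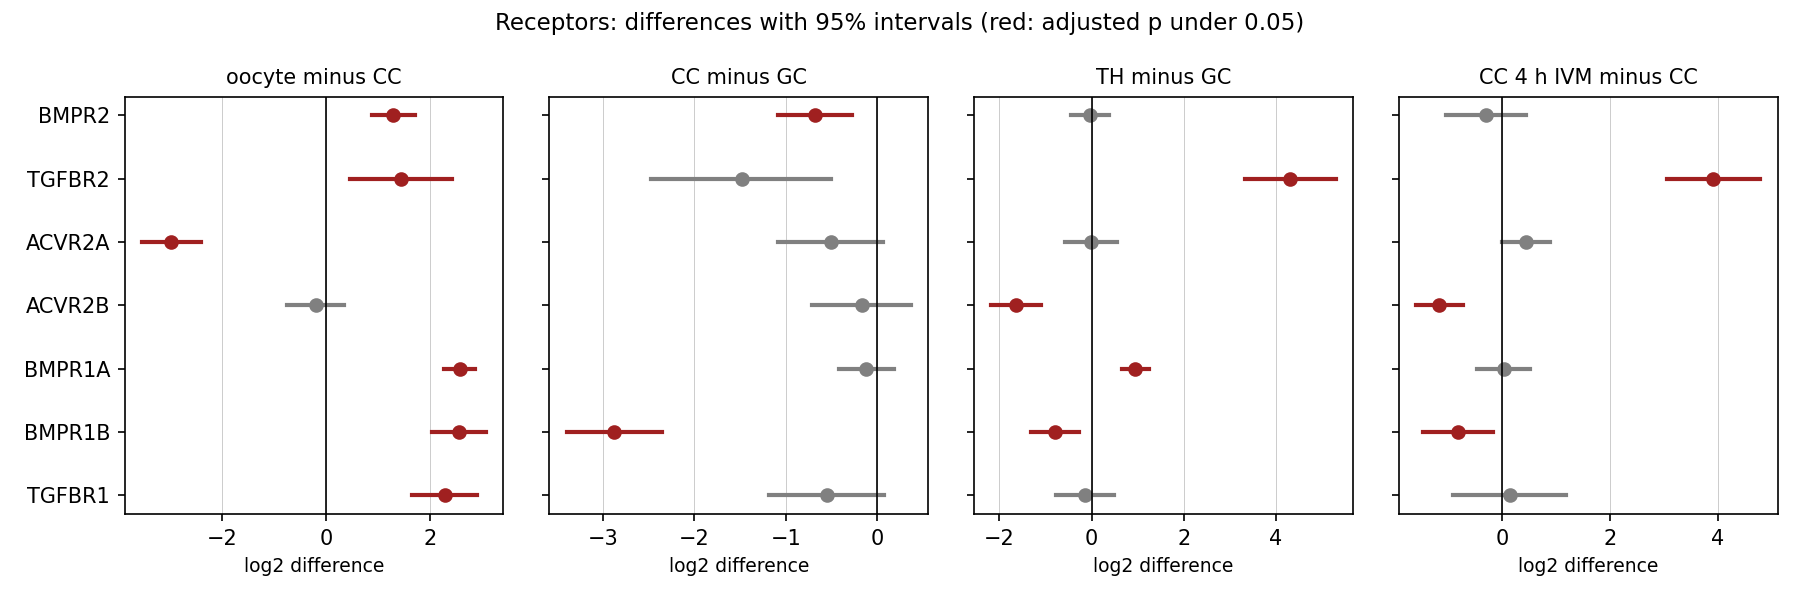
Log2 differences of the 7 receptors between pairs of groups (x axis, with a scale of its own in each panel), with lines for the 95% interval before adjustment for the number of genes and red for an adjusted p below 0.05. TGFBR2 has the largest difference in TH minus GC (4.32) and after IVM (3.92), BMPR1B in CC minus GC (-2.88), and ACVR2A is the only receptor called lower in oocyte minus CC.

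Among the somatic arrays, the patterns most like those of the receptors were described over 16 arrays, which share the differences between the 4 groups. For BMPR1B they were those of TAGAP (r = 0.971), NRP1 (r = 0.962), and LMO4 (r = 0.960), for TGFBR2 those of SPTBN5 (r = 0.978), RBPMS (r = 0.972), and CLEC14A (r = 0.967), an endothelial gene. For BMPR1A they were CLEC11A (r = 0.971), DDRGK1 (r = 0.938), and SAO (r = 0.934), and for ACVR2B they were NTNG1 (r = 0.958), PRMT6 (r = 0.956), and RPRM (r = 0.950). Lower values were found for BMPR2 (NHLRC2 and ARL15, both r = 0.932, and SLC25A51, r = 0.924), TGFBR1 (FRS2, r = 0.893, CHD9, r = 0.884, and PKN2, r = 0.882), and ACVR2A (TSPAN13, r = 0.861, WASL, r = 0.855, and 1 unnamed transcript, r = 0.830).

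The rest of the pathway was read from lists of 65 other genes on the array. In the oocyte compared with CC, 23 were higher and 28 lower, against 31.7% and 32.0% of all genes, with a median difference of -0.40, the same as that of all genes. Of the 5 receptor-activated SMADs, SMAD1 and SMAD3 were higher in the oocyte by 2.74 and 2.52 and SMAD9 by 1.57, SMAD2 was lower by a difference of -0.51, and SMAD5 differed by -0.01 (adjusted p = 0.97). SMAD4, the partner of them all, was lower by a difference of -2.86. SMURF1, a ubiquitin ligase for SMADs and receptors, was higher by 5.19, and PMEPA1, an inhibitor of TGF-beta signalling, was lower by a difference of -7.87. Thus, the genes downstream of the receptors did not move in 1 direction in the oocyte.

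Of the other type I receptors, 3 of 4 were higher in the oocyte than in CC, among them ACVR1 by 3.97 and ACVRL1 by 3.84, and AMHR2, the receptor of anti-Müllerian hormone, was at least 4.35-fold lower (adjusted p = 1.8e-07). Of the 14 other ligands, 5 were higher and 4 lower, against 31.7% and 32% of all genes. BMP6, which oocytes also secrete, was at least 21.0-fold higher (adjusted p = 9.2e-13), and AMH was lower by a difference of -8.62. Of the 8 antagonists, which bind the ligands outside the cell, 6 were lower, with TWSG1 at -7.96, and 2 were higher, with SOSTDC1 at 8.71. The same shares of all genes stand beside the counts of receptors and antagonists.

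In CC compared with GC, 10 of the 65 were higher and 8 lower, against 5.26% and 4.58% of all genes, with a median of 0.00. The SMAD list had SMAD1 (-0.60), SMAD3 (-0.51), and SMAD9 (-1.30) lower and SMAD2 (0.61) higher, alongside the lower BMPR1B. The coreceptors RGMB and TGFBR3 were lower by differences of -1.53 and -1.45. Of the 5 theca genes, COL1A2 and ACTA2 were also lower in CC, by differences of -5.72 and -2.41, and RGMB, TGFBR3, SMAD1, and SMAD9 had their highest somatic mean in TH. The part of theca cells in these differences was not tested. Of 9 genes known to respond to GDF9 or BMP15 in cumulus cells, 4 were higher in CC (PFKP by 2.74, HAS2 by 1.75, NPR2 by 1.62, and EGFR by 1.20) and PTGS2, the prostaglandin synthase, was lower by a difference of -2.51. HAS2, the hyaluronan synthase of cumulus expansion, was above background on 2 CC arrays and 1 GC array. In the oocyte it was above background on all 4 arrays, with a mean of -0.54 against -5.56 in CC. Whether oocyte RNA had a part in the HAS2 values of CC was not tested.

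After IVM, 25 of the 65 were higher and 14 lower, against 30.3% and 15.6% of all genes, with a median of 0.36 against 0.37 over all genes. HAS2 rose by 7.76 and BMP2 by 6.11, and of the 14 ligands 9 were higher, with AMH lower by a difference of -1.04. Of the other receptors, ACVRL1 was lower by a difference of -2.11 and AMHR2 was at least 1.95-fold lower (adjusted p = 0.00052). SMAD9 was higher by 2.23, whereas SMAD1, SMAD2, and SMAD3 were lower by differences of -0.73, -1.43, and -1.34. BAMBI, a decoy receptor, rose by 2.00, PMEPA1 by 1.92, SMAD7, an inhibitory SMAD, by 1.66, and ID1, a target of BMP signalling, by 2.57, while ID2 and ID3 were not called.

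In TH compared with GC, 21 of the 65 were higher and 16 lower, against 11.8% and 14.5% of all genes. ID1 and ID3 were higher by 4.47 and 2.36, SMAD9 by 3.37, and ACVRL1, a type I receptor of endothelial cells, by 4.84. Of the ligands of TGFBR2, TGFB3 was higher by 4.35 and TGFB2 at least 2.50-fold (adjusted p = 3e-06), TGFB1 differed by 0.04 (adjusted p = 0.95), and ENG, their endothelial coreceptor, was at least 3.25-fold higher (adjusted p = 1.9e-07). The endothelial genes PECAM1 and VWF were higher there as well.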

How the data were processed

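Gene expression was measured on 20 one-colour (Cy3) custom Agilent arrays, 4 each of TH, GC, CC, CC after IVM, and oocytes, assigned from the sample titles. The authors deposited the Feature Extraction 10.7.3.1 output of each array, in which each spot has a background-subtracted intensity, before any scaling of arrays to each other, and marks for saturated spots, outliers, and spots well above background. They also deposited log2 values of all arrays, each equal to log2 of the median pixel signal minus the array median (within 5e-09), with a median of 0 per array. Probes were annotated on UMD 3.1, and RefSeq names (ARS-UCD2.0) were matched for 3548 probes by accession and 1433 by synonym, while 39782 kept a current symbol and 16562 the array name. Control spots and outlier-marked spots (at most 23 per array) were left out, no probe was saturated, the 75th percentile of log2 processed intensity over 61325 probes was subtracted, and the median over the spots of a gene was taken. The number of arrays limits the precision.

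Models were fitted in R 4.3.3 with limma 3.58.1 (lmFit, eBayes) and data.table (version 1.17.8), for TH, GC, CC, and oocytes in 1 fit of 16 arrays and for CC after IVM against CC in a fit of 8, with Benjamini-Hochberg adjustment over all 22596 genes. For a gene above background on no array of a group, folds are lower limits, in which each dim array takes its own value or the lowest signal above background, whichever is higher. The fits were tested on simulated data. Figures were drawn with matplotlib 3.10.9. Replicate numbers in TH and GC were taken to pair the samples from their values alone, since the labels do not explain the numbers. Deviations of the same number correlated between 0.20 and 0.44, and all 4 matched best with their own number. In the other pairs the lowest was between -0.26 and 0.02. The main fit had no term for such pairs. The alternatives were quantile, array-median, and detected-probe scaling, normexp (offset 50), the deposited log2 values, the mean, the brightest spot, and each probe, dropping dim genes, 1 fit of all 20 arrays, replicate and slide blocks, each slide, arrayWeights, eBayes with trend, the methods' analysis of variance, and leaving out each array.

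The members and lists were chosen with earlier results of these data known. Named are the 9 members, the genes of each list with the highest or lowest called difference from GC to CC, CC to oocyte, or CC to IVM, the partners of the members by role, and the genes most alike in pattern (5 for ligands, 3 for receptors); other genes of the lists were named after their values were seen. Listed names without a match on the array were not used.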

Additional observations from a re-analysis of the deposited data

Results flagged for a closer look

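Of 45 groups of 4 arrays (9 genes in 5 groups), 2 had an array far from the other 3 relative to the spread of the group. Chance gives about 1 in 20, so that 2 of 45 is near what chance gives. BMPR2 in oocyte replicate 3 was -1.36, compared with -1.17 to -1.16 on the other oocyte arrays. TGFBR1 in TH replicate 4 was -5.61 and not above background, compared with -4.27 to -4.13 on the other TH arrays.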

How the results depend on the processing

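The oocyte differences of GDF9, BMP15, BMPR1A, and ACVR2A, the TH differences of TGFBR2, the difference of BMPR1B between CC and GC, and the TGFBR2 and ACVR2B differences after IVM kept their direction and their call in every alternative and with any array left out. The number of the 9 genes called changed more in other comparisons, for reasons that were not tested. In TH against CC it was 7, with 31.8% of all genes called, and 4 with normexp, within slide 1, or within slide 2. There 24%, 14.7%, and 18.5% of all genes were called. In CC against GC it was 3, and 1 in the deposited log2 table, within slide 1, or within slide 2. Of all genes, 9.84% were called in the main fit, and 10.4%, 0.819%, and 1.99% in these settings. In TH against GC it was 4, and 2 within either slide, where only 2 arrays a group remained. The share of all genes called fell from 26.3% to 10% within slide 1 and 12.5% within slide 2. In CC after IVM against CC it was 3, and 5 with normexp and with the slide as a random block. The share of all genes called was 45.8% in the main fit, 78.4% with normexp, and 67.9% with that block. The random block was chosen after seeing the data and had an estimated correlation of -0.26. Its 2 further genes were GDF9 (-0.75, adjusted p = 0.043) and ACVR2A. The SE of GDF9 was 0.29 with this block, against 0.46 in the main fit. Normexp reversed TGFBR2 in oocyte minus CC to -0.73 and BMP15 in IVM minus CC to 0.32. With any 1 array left out, the number was 5 to 7 in TH against CC, 2 to 4 in CC against GC, 3 to 4 in TH against GC, 2 to 3 after IVM, and 8 to 9 in oocyte against TH. The share of all genes called was then 28.1% to 33.4% in TH against CC and 6.64% to 11.4% in CC against GC. It was 22.8% to 28.8% in TH against GC, 29% to 48.8% after IVM, and 61.4% to 81.5% in oocyte against TH. With the replicate block no call changed between TH and GC, whose numbers were taken to pair the samples. In pairs that share only a number, the replicate block gave 4 calls in CC against GC, with TGFBR2 added (-1.48, adjusted p = 0.049), and 2 after IVM, with BMPR1B lost (-0.81, adjusted p = 0.069). Of all genes, it called 10.3% in CC against GC and 31.3% after IVM. A fixed slide block could not be fitted for IVM. Signal over background limited GDF9 in TH and GC, TGFBR2 in GC, CC, and the oocyte, and ACVR2A in the oocyte. It also limited TGFBR1, probe 2 of BMP15, and probe 1 of ACVR2A in the somatic groups. In CC after IVM it limited probe 2 of BMPR1B and probe 1 of ACVR2B.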
